A study of Mus musculus with 12 samples.

Results

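Klf4 encodes a zinc-finger transcription factor, and 8 mouse genes whose transcripts fell most when it was silenced in lung mesenchymal cells are described here, of 52636 genes in the tables. They are Adgrd1, Nkain4, Clec3b, Susd2, Gdpd2, Anxa8, Gda and Serpinb6c. All were chosen by the size of their fall with siKlf4. Adgrd1, Nkain4, Clec3b, Susd2 and Gdpd2 were the 5 largest falls in smooth muscle cells (SMCs), and Anxa8, Gda and Serpinb6c were 3 of the 5 largest falls in PDGFR-β+ cells, in both cases among genes with an adjusted p under 0.05 and groups of libraries that did not overlap. The other genes among those 5, Ndufa4l2 and Prelp, were not taken, for a reason that was not recorded. A gene's change in the cell type it was chosen in is therefore a description with no test, and its change in the other cell type, whose libraries the ranking did not use, is the measurement that was tested. At the edge of the choice, Gdpd2 ranked 5 in SMCs with a log2 change of -2.37 and Serpina3m ranked 6 with -2.34. The ranking added 1 to each level before the logarithm, which understates the falls of low genes. Gngt2, for example, ranked 8 in SMCs but kept 11.4% of its mean level with siKlf4, against 18.7% for Gdpd2. In PDGFR-β+ cells, Prelp ranked 5 with -3.48, Klf4 itself ranked 6 with -3.35 and Nkain4 ranked 7 with -3.34.

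RNA of whole cultures was sequenced in 12 libraries, 3 in each of 4 groups. Murine SMCs of strain C57BL/6, called airway SMCs in the titles and assigned to the trachea in the tissue label, came from a stock of the supplier CellBiologics and received a scrambled RNA (Scr, genotype WT) or an siRNA against Klf4 (siKlf4, genotype Klf4 KD). Lung PDGFR-β+ cells of 12-week-old mice received the same treatments. The labels give these mice as C57BL/6 and WT before silencing, whereas the study's methods describe cells sorted by their Zs fluorescence from reporter mice that carry Pdgfrb-CreERT2 and ROSA26R(Zs/+), in which the Pdgfrb promoter drives a tamoxifen-inducible Cre. Both kinds of cell were cultured, the SMCs are a single commercial stock, and the siRNA lowers the transcript without removing the gene. Values are transcripts per 1000000 (TPM), which divide reads by transcript length and give each library the same total. Levels of different genes can therefore be compared within a library. The study's methods state a planned depth, but the depth that each library reached cannot be read from TPM.

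The number of genes above 0 TPM ranged from 20590 to 21780. As a check of the labels, Klf4 was lower in every siKlf4 library. It was 89.6, 96.3 and 95.03 TPM in the Scr-treated SMCs and 26.5, 16.3 and 18.8 TPM after siKlf4, so that 21.9% of the mean was left. Its level in PDGFR-β+ cells was 144, 146 and 134 TPM with Scr, against 12.3, 13.8 and 12.8 TPM with siKlf4, with 9.16% left. Smooth muscle markers were present in both kinds of cell, and the summed level of the 8 listed was 1509 to 2299 TPM in Scr-treated SMCs, below the 5577 to 6428 TPM in Scr-treated PDGFR-β+ cells, whose table was made separately. Acta2, the smooth muscle actin, was 1031 to 1567 TPM in the former. Pdgfrb was 423 to 474 TPM in Scr-treated PDGFR-β+ cells and 213 to 216 TPM in Scr-treated SMCs. Each of the 8 epithelial markers stayed under 1 TPM in all libraries of both cell types. For SMCs, 1 library of each treatment has no replicate number in its column name and is called unnumbered below.

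KLF proteins bind GC-rich and CACCC-type DNA, and Klf4 can raise or lower transcription depending on the gene and cell. In smooth muscle, Klf4 is best known for its part in the switch from a contractile to a less differentiated state. The 8 genes belong to 8 different protein families. At the cell surface, Adgrd1 is an adhesion G protein-coupled receptor that signals through the stimulatory G protein, Nkain4 is a small membrane protein of a family that interacts with the sodium/potassium ATPase, and Susd2 is a membrane protein with a sushi domain. Clec3b encodes tetranectin, a secreted protein with a C-type lectin fold that binds plasminogen. Gdpd2 and Gda are enzymes. The former is a membrane glycerophosphodiester phosphodiesterase, and the latter is the guanine deaminase that turns guanine into xanthine. Anxa8 is an annexin, a protein that binds phospholipid membranes in the presence of calcium, and Serpinb6c is an intracellular serine protease inhibitor of clade B.

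The 8 genes lie on 8 chromosomes of mm10, and all are protein-coding. In the GENCODE annotation, Adgrd1 covers chr5:129096750-129204599 on the forward strand, Nkain4 chr2:180934772-180954699 on the reverse strand, Clec3b chr9:123150946-123157432 on the forward strand and Susd2 chr10:75636706-75644008 on the reverse strand. Gdpd2 covers chrX:100729873-100738895 on the forward strand, Anxa8 chr14:34085981-34100571 on the forward strand, Gda chr19:21391307-21473445 on the reverse strand and Serpinb6c chr13:33879816-33905708 on the reverse strand. Exons of Nkain4 overlap the antisense gene Gm14341, and exons of Gdpd2 overlap Gm14866 on the opposite strand. The library kit keeps strand, but the strand setting of the quantification is not given in the sources used here, so reads of these partners may not be separable. Serpinb6c has the close relatives Serpinb6a and Serpinb6b, and reads that they share could have been split among them.

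RefSeq promoter windows (GRCm38.p6) were matched for 4 of the 8 genes, and the 250 bases before the transcription start are shown because KLF proteins bind CACCC-type letters. Capitals mark CACCC and CACNCCC on either strand (GGGTG and GGGNGTG on the printed strand). The motifs can overlap, as in CACACCC. The windows are chr14:34085729-34085978 on the forward strand for Anxa8, chr19:21472662-21472911 on the reverse strand for Gda, chr13:33905192-33905441 on the reverse strand for Serpinb6c and chrX:100729597-100729846 on the forward strand for the upstream start of Gdpd2. Those of Gda and Serpinb6c lie inside the longer GENCODE gene spans.
Anxa8: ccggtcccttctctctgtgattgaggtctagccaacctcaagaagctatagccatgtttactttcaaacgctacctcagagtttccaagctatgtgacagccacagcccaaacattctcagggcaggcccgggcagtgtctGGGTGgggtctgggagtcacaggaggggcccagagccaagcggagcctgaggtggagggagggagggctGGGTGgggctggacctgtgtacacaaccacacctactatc
Gda: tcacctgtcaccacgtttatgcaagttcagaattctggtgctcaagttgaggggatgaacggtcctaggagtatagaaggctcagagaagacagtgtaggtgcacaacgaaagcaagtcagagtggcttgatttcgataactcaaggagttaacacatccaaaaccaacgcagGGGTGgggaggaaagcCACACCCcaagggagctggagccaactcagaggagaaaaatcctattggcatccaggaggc
Serpinb6c: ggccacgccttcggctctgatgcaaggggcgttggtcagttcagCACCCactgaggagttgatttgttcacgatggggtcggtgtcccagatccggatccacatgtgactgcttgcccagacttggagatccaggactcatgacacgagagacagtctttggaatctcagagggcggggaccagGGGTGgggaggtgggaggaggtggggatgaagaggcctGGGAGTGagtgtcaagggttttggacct
Gdpd2: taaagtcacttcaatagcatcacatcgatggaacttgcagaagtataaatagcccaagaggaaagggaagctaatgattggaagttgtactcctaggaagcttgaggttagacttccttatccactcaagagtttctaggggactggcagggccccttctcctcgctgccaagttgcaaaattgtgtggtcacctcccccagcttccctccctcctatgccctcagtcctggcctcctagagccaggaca
Each of the Anxa8, Gda and Serpinb6c windows held 2 matches to CACCC, and the Gda and Serpinb6c windows held 1 match each to CACNCCC. Neither of the 2 Gdpd2 windows held a match to either motif. Of all 32851 windows in the RefSeq table, 52.0% held CACCC, 21.1% held at least 2 matches to it, and 26.1% held CACNCCC. A match is a description of the letters and was not tested as a binding site.

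In both cell types, all siKlf4 libraries lay below all Scr libraries for 7 of the 8 genes. Gdpd2 did so in SMCs alone, and in PDGFR-β+ cells it lay above. Among all genes tested, every siKlf4 library was below every Scr library for 21.5% in SMCs and for 19.8% in PDGFR-β+ cells. The choice fixed this order in the cell type of choice only. In these bulk samples, fewer cells of a type and less RNA per cell cannot be told apart.

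**Figure D1:**
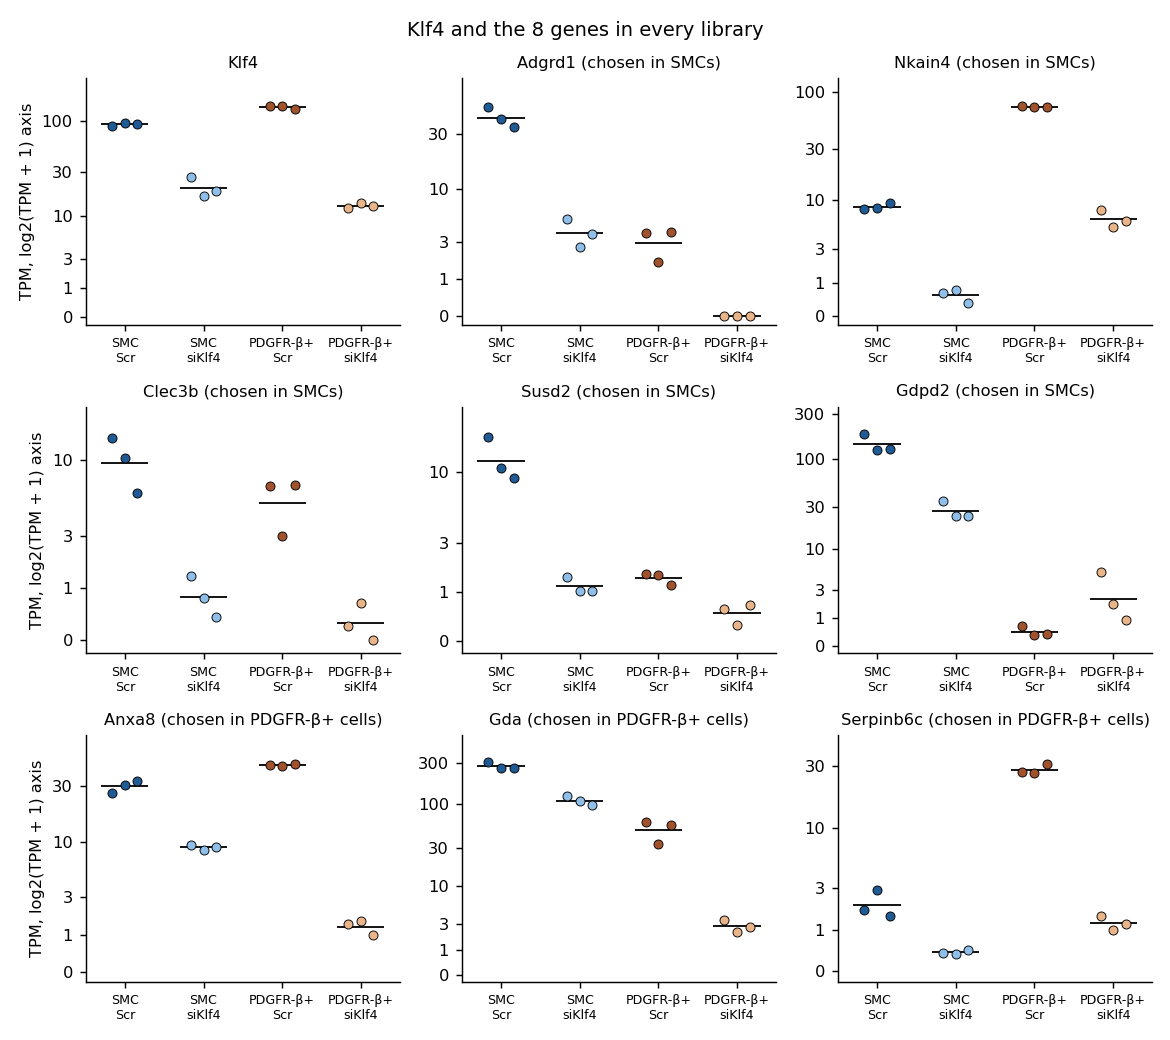
TPM of Klf4 and the 8 genes in each library, on a log2(TPM + 1) axis. Points are libraries, lines are means on the plotted scale, and each panel gives the cell type its gene was chosen in. Gdpd2 is the gene whose siKlf4 libraries sit below Scr in SMCs and above Scr in PDGFR-β+ cells, and Adgrd1 is listed at 0 TPM in all 3 siKlf4 libraries of PDGFR-β+ cells.

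Of the cell surface genes, Nkain4 fell steeply in both cell types from very different levels. In SMCs it was 8.11, 8.25 and 9.25 TPM with Scr, against 0.618, 0.723 and 0.309 TPM with siKlf4. The PDGFR-β+ cells held 74.4, 73.0 and 72.5 TPM with Scr, against 7.85, 5.23 and 6.18 TPM with siKlf4. Neither siKlf4 group overlapped its Scr group. Of the mean, SMCs kept 6.44% and PDGFR-β+ cells 8.76%. In the latter, where Nkain4 was not chosen, the log2 change was -3.34 ± 0.13 (SE; adjusted p = 6.72e-06, limma). There, 15.3% of the genes tested fell and 40.6% changed in either direction.

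Adgrd1 was an abundant receptor transcript in SMCs and a rare one in PDGFR-β+ cells. Its level in SMCs was 51.4, 40.2 and 34.4 TPM with Scr, against 5.22, 2.69 and 3.69 TPM with siKlf4, with 9.21% of the mean left. The level in PDGFR-β+ cells was 3.75, 1.74 and 3.87 TPM with Scr, and it was listed at 0 in all 3 siKlf4 libraries. The fitted log2 change there was -2.00 ± 0.24 (SE; adjusted p = 7.45e-04, limma). Its size depends on the 1 TPM added before the logarithm, and no fold is given against a group listed at 0. Adgrd1 entered the PDGFR-β+ test only through its Scr libraries, so it had to be lower there if it was tested at all.

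Susd2 followed Adgrd1 in having its higher level in SMCs. It was 17.0, 10.7 and 9.08 TPM in Scr-treated SMCs and 1.49, 1.04 and 1.03 TPM after siKlf4, so that 9.68% was left. Levels in PDGFR-β+ cells were 1.59, 1.55 and 1.22 TPM with Scr, against 0.574, 0.248 and 0.656 TPM with siKlf4, with 34.0% left. The groups did not overlap in either cell type, but the mean of the 6 PDGFR-β+ libraries was under the minimum of 1 TPM and Susd2 was not tested there.

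Clec3b, the secreted tetranectin, had overlapping Scr levels in the cell types and fell in both. In SMCs it was 13.8, 10.3 and 6.03 TPM with Scr, against 1.36, 0.750 and 0.359 TPM with siKlf4, with 8.22% left. PDGFR-β+ cells held 6.75, 2.998 and 6.83 TPM with Scr and 0.207 and 0.630 TPM in siKlf4 replicates 1 and 2, and it was listed at 0 in replicate 3. The mean left was 5.05%, which became 1.87% without siKlf4 replicate 2 and 7.57% without replicate 3. The log2 change in PDGFR-β+ cells was -2.32 ± 0.31 (SE; adjusted p = 0.00106, limma). Like Adgrd1, it passed the minimum level there through its Scr libraries alone. Its Scr libraries were the most spread of the 8 genes in SMCs, where the unnumbered library held over 2 times the level of replicate 3.

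Gdpd2 was the exception. It was among the most abundant of the 8 in SMCs, at 186, 125 and 128 TPM with Scr, and was 35.0, 23.7 and 23.7 TPM with siKlf4, with 18.7% left. Its level in PDGFR-β+ cells was 0.637, 0.321 and 0.343 TPM with Scr, against 5.15, 1.80 and 0.922 TPM with siKlf4. Every siKlf4 library was above every Scr library, and the mean was 6.05-fold higher, or 3.13-fold higher without siKlf4 replicate 1. The log2 change was 1.17 ± 0.40 (SE, 95% interval 0.25 to 2.09; adjusted p = 0.0489, limma), where 25.3% of the genes tested rose. This call is weak. It was lost in 8 of the 12 alternative fits that could test the gene, with adjusted p between 0.0167 and 0.115 over the 12, and without siKlf4 replicate 1, the highest library, the gene fell under the minimum level and could not be tested. Gdpd2 entered the test only through its siKlf4 libraries, so a tested change had to be a rise.

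Anxa8 had the largest fall of any gene in PDGFR-β+ cells under the rule of choice. It was 44.1, 43.6 and 45.5 TPM with Scr, against 1.42, 1.55 and 1.00 TPM with siKlf4, with 2.98% left. In SMCs it was 26.0, 30.6 and 32.9 TPM with Scr, against 9.42, 8.57 and 9.07 TPM with siKlf4, with 30.2% left. Both fell without overlap, and the replicates of each siKlf4 group lay close together. In SMCs, where it was not chosen, the log2 change was -1.62 ± 0.11 (SE; adjusted p = 6.72e-04, limma). There, 12.9% of the genes tested fell and 28.5% changed in either direction.

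Gda, the guanine deaminase, was the most abundant of the 8 in SMCs. It was 309, 259 and 259 TPM with Scr, against 123, 106 and 96.9 TPM with siKlf4, a log2 change of -1.34 ± 0.11 (SE; adjusted p = 9.41e-04, limma) that left 39.4% of the mean. The PDGFR-β+ cells held 61.1, 33.3 and 56.0 TPM with Scr, against 3.39, 2.19 and 2.71 TPM with siKlf4, with 5.51% left. Scr replicate 2 stood below the other Scr libraries, and the groups did not overlap in either cell type.

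Serpinb6c showed the reverse order of levels. It was 27.2, 26.6 and 30.9 TPM in Scr-treated PDGFR-β+ cells and 1.54, 1.00 and 1.21 TPM after siKlf4, with 4.43% left. In SMCs it was scarce, at 1.81, 2.91 and 1.52 TPM with Scr, against 0.349, 0.345 and 0.431 TPM with siKlf4, and 18.0% was left. The log2 change in SMCs was -1.14 ± 0.20 (SE; adjusted p = 0.00778, limma). It too passed the minimum level in this cell type only through its Scr libraries, whereas Anxa8 and Gda in SMCs and Nkain4 in PDGFR-β+ cells were above 1 TPM in both groups. With the replicate number as a block, which uses the 4 numbered SMC libraries, the adjusted p of Serpinb6c was 0.0615 in limma. Without Scr replicate 2, its highest SMC library, it fell under the minimum level and could not be tested.

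Of the Scr libraries of PDGFR-β+ cells, replicate 2 was well below the other 2 for Adgrd1, Clec3b and Gda, whereas for Nkain4, Anxa8 and Serpinb6c it lay close to them. In SMCs, the unnumbered Scr library was the highest for Adgrd1, Clec3b, Susd2, Gdpd2 and Gda and the lowest for Nkain4 and Anxa8. The siKlf4 change of the unnumbered pair taken alone was close to that of the numbered libraries for most of the 8, for example -3.07 against -3.20 for Adgrd1 and -2.38 against -2.37 for Gdpd2 on the log2 scale. It was smaller for Anxa8, at -1.38 against -1.74, and larger for Susd2, at -2.85 against -2.41. For Klf4 itself the values were -1.72 and -2.38.

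**Figure D2:**
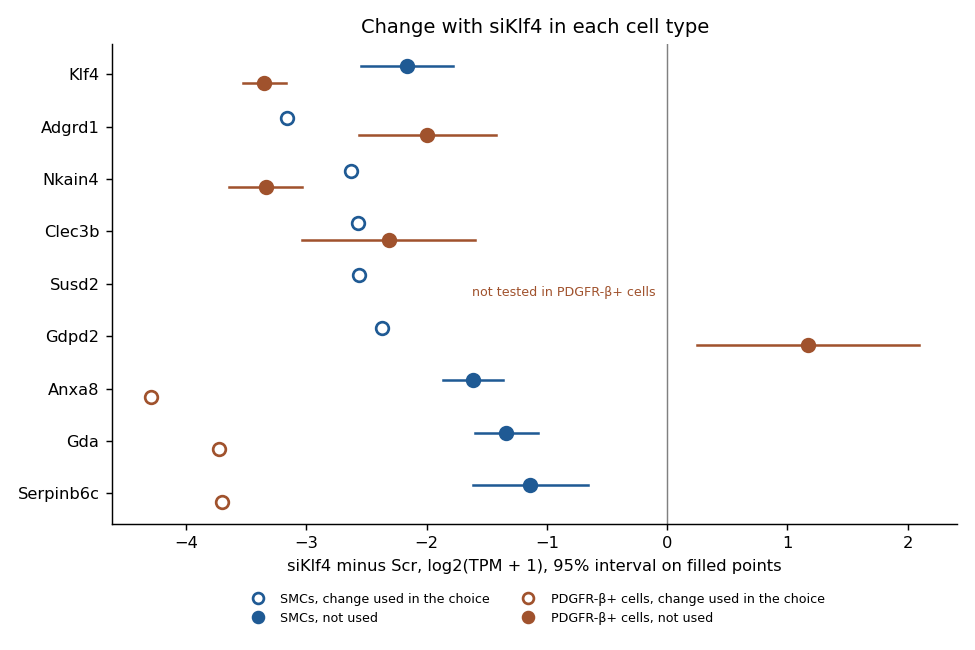
The siKlf4 minus Scr difference of log2(TPM + 1) for Klf4 and the 8 genes in SMCs (blue) and PDGFR-β+ cells (brown). Open points are changes that the choice used and carry no interval, and filled points carry the 95% interval of the limma fit. Gdpd2 lies at 1.17 in PDGFR-β+ cells and -2.37 in SMCs, and the other tested points lie below 0.

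Thus 7 genes were lower with siKlf4 in both cell types. In the cell type that the choice did not use, Nkain4, Anxa8 and Gda, which were above the minimum level in both treatments, fell past the test. Adgrd1, Clec3b and Serpinb6c passed it too, but were tested only through their Scr libraries, so that a tested change could only be a fall. Serpinb6c lost its call with the replicate block and could not be tested without Scr replicate 2 of SMCs. Susd2 was not tested there. The difference of the log2 changes, SMCs minus PDGFR-β+ cells, was 2.68 ± 0.16 (SE) for Anxa8, 2.56 ± 0.23 for Serpinb6c and 2.39 ± 0.28 for Gda, which fell further in PDGFR-β+ cells. It was -3.54 ± 0.48 for Gdpd2, -1.16 ± 0.34 for Adgrd1 and -0.25 ± 0.48 for Clec3b, and 0.71 ± 0.19 for Nkain4, although less of its mean TPM was left in SMCs. These differences contain the change that each gene was chosen by, so no p is given. Klf4 itself differed by 1.19 ± 0.19 in the same direction as Anxa8, Serpinb6c and Gda. The sign of the difference for Adgrd1, Clec3b and Nkain4 turned with a pseudocount of 0.1 in place of 1, to 1.49, 0.70 and -0.28, so for these 3 genes the data do not order the cell types. Over all genes tested, the median log2 change was 0.02 in SMCs and 0.10 in PDGFR-β+ cells.

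Before silencing, the cell types held the 8 genes at different levels. The tables of the cell types were made separately, so these levels are set side by side as a description, and no p is given because the Scr libraries also entered the choice. The Scr libraries of the cell types did not overlap for 7 of the 8 genes, against 58.6% of all genes with enough signal. Relative to PDGFR-β+ cells, mean TPM in SMCs was 338-fold higher for Gdpd2, 13.5-fold for Adgrd1, 8.45-fold for Susd2 and 5.50-fold for Gda. It was higher in PDGFR-β+ cells by 13.6-fold for Serpinb6c, 8.59-fold for Nkain4 and 1.49-fold for Anxa8. Klf4 was 1.51-fold higher there. Clec3b was 1.81-fold higher in SMCs, with overlapping libraries.

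In SMCs the order of the mean Scr levels was Gda at 276 TPM, Gdpd2 at 146, Adgrd1 at 42.0, Anxa8 at 29.8, Susd2 at 12.3, Clec3b at 10.0, Nkain4 at 8.53 and Serpinb6c at 2.08 TPM. Susd2, Clec3b and Nkain4 overlapped each other. In PDGFR-β+ cells it was Nkain4 at 73.3 TPM, Gda at 50.1, Anxa8 at 44.4, Serpinb6c at 28.2, Clec3b at 5.53, Adgrd1 at 3.12, Susd2 at 1.45 and Gdpd2 at 0.434 TPM. There, Gda overlapped Anxa8, and Clec3b overlapped Adgrd1. 

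**Figure D3:**
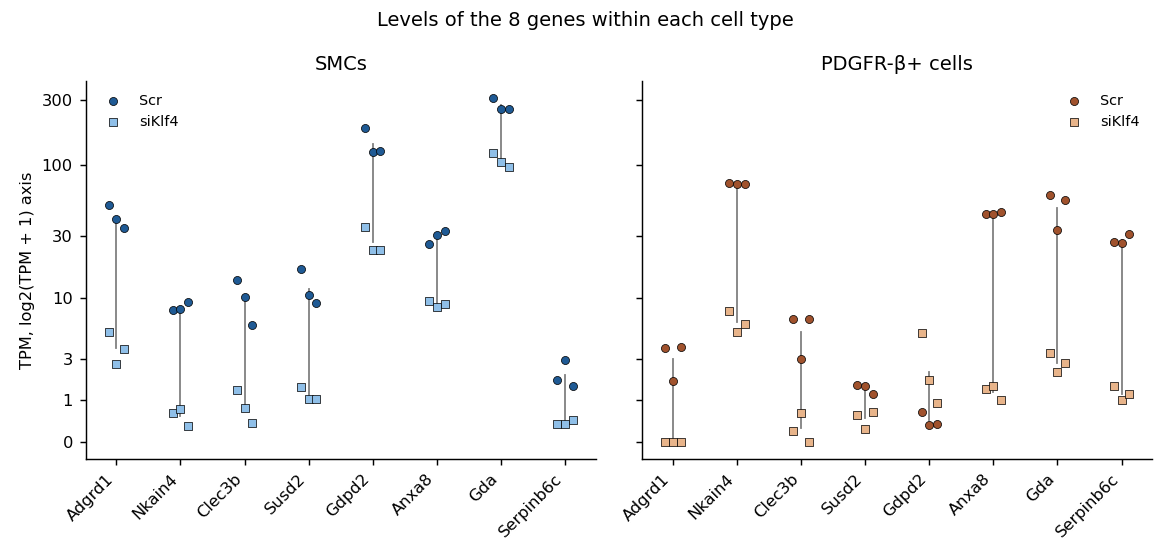
TPM of the 8 genes within each cell type, on a log2(TPM + 1) axis. Circles are Scr libraries, squares are siKlf4 libraries and grey lines join their means. Gda and Gdpd2 lead in SMCs, Nkain4, Gda and Anxa8 lead in PDGFR-β+ cells, and Gdpd2 in PDGFR-β+ cells is the gene whose squares lie above its circles.

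Markers of several cell types moved in the same libraries. Counts of falls stand against the 12.9% of all genes tested that fell in SMCs and the 15.3% that fell in PDGFR-β+ cells. Counts of rises stand against the 25.3% that rose in PDGFR-β+ cells and, in SMCs, the 28.5% that changed in either direction. The share that rose in SMCs is smaller, since 3910 of 13709 genes tested changed there and 1774 of them fell. The smooth muscle list rose in SMCs, in 7 of 8 members, with the summed level at 1509 to 2299 TPM with Scr and 3432 to 4204 TPM with siKlf4. In PDGFR-β+ cells, 3 of the 8 rose and 3 fell. Of 12 adventitial fibroblast markers, 7 of 11 tested fell in SMCs, where the sum went from 1298 to 2207 TPM with Scr down to 684 to 986 TPM. A large part of that sum was Ly6a, which did not pass the test (516 to 1097 TPM with Scr, 232 to 543 TPM with siKlf4; adjusted p = 0.102, limma). Of the same list, 5 of 9 tested fell and 1 rose in PDGFR-β+ cells, where the sums were 789 to 852 TPM and 683 to 765 TPM. Of 9 alveolar fibroblast markers, 4 of 6 tested fell and 1 rose in SMCs, with sums of 164 to 190 TPM and 118 to 147 TPM, and 2 of 5 fell in PDGFR-β+ cells, where the sums overlapped. Of 8 pericyte markers, 2 of 7 tested fell in SMCs, with sums of 247 to 254 TPM and 204 to 229 TPM. In PDGFR-β+ cells 2 of 4 fell, Cspg4 and Pdgfrb, with sums of 470 to 510 TPM and 319 to 417 TPM. Of 12 mesothelial markers, all 7 tested fell in PDGFR-β+ cells, with the summed level at 81.7 to 99.2 TPM with Scr and 29.5 to 34.8 TPM with siKlf4. Among them were Msln, the mesothelial surface protein mesothelin, at -2.48, and the uroplakin Upk1b at -1.88 (log2; adjusted p = 4.41e-05 and 3.07e-05, limma). Msln passed the minimum level there only through its Scr libraries, so that its tested change could only be a fall. The same limit holds in PDGFR-β+ cells for the smooth muscle marker Des (mean 2.08 TPM with Scr, 0.756 TPM with siKlf4), the alveolar fibroblast marker Inmt and the macrophage marker Csf1r. In SMCs it holds for the mesothelial marker Wt1, the adventitial fibroblast marker Dpp4, the pericyte marker Abcc9 and the macrophage marker Lyz2. Krt8 was listed at 0 in all 12 libraries. In SMCs, 3 of 4 tested mesothelial markers fell and 1, Krt19, rose, and the sums of 38.1 to 55.1 TPM with Scr and 35.0 to 41.1 TPM with siKlf4 overlapped. Of 8 macrophage markers, 1 of 3 tested fell in SMCs, and this was Cd14, which made up most of the sum (39.8 to 42.3 TPM with Scr, 20.0 to 25.2 TPM with siKlf4). In PDGFR-β+ cells Cd14 rose, from 6.63 to 7.04 TPM up to 10.2 to 11.0 TPM, while Lyz2 and Csf1r fell and Cd68 did not pass the test. Adgre1, a defining macrophage marker, was listed at 0 in all 6 SMC libraries. Of 8 endothelial markers, Kdr was the 1 tested in SMCs and rose, from a mean of 0.663 to 2.88 TPM. It was tested only through its siKlf4 libraries, so its change could only be a rise. In PDGFR-β+ cells 1 of 2 tested rose, and the sums of 15.3 to 18.5 TPM with Scr and 14.1 to 16.2 TPM with siKlf4 overlapped. The part of any of these cell types in the falls of the 8 genes was not tested.

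The relatives of each gene, from lists of its family or pathway, rose in some cases and fell in others. Their counts are to be read against the share of all genes tested that passed the threshold in either direction, 28.5% in SMCs and 40.6% in PDGFR-β+ cells, and nothing is called particular to a list. Of 11 other adhesion G protein-coupled receptors tested in SMCs, 3 rose and 1 fell, and of 9 in PDGFR-β+ cells, 4 rose and 1 fell. Adgrg1 in SMCs and Adgrf5 in PDGFR-β+ cells passed the minimum level only through their siKlf4 libraries, so their tested change could only be a rise. Adgrl3, a latrophilin, rose on the log2 scale by 0.76 in SMCs and by 1.44 in PDGFR-β+ cells, and Adgrg6, a receptor known from Schwann cell myelination, rose by 0.78 and 1.20 (adjusted p = 0.0179 and 3.55e-05, limma). Adgrd1 fell while these receptors rose in the same libraries, and 1 other receptor of the list fell in each cell type. Of 3 other NKAIN genes, Nkain1 was the 1 tested in SMCs, where its log2 change was 0.43 ± 0.18 (SE; adjusted p = 0.118, limma). In PDGFR-β+ cells Nkain1 fell, from a mean of 61.0 to 32.6 TPM (log2 change -0.88 ± 0.09 SE; adjusted p = 3.11e-04, limma), and Nkain2 rose.

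Of the 8 other C-type lectin domain genes tested in each cell type, 3 fell and 1 rose in each, where 12.9% of all genes tested fell in SMCs and 15.3% in PDGFR-β+ cells. Cd248, the stromal surface protein endosialin, was among those that fell in both cell types, by 0.62 in SMCs (adjusted p = 0.00335, limma) and from 269 to 102 TPM in PDGFR-β+ cells. Mrc2, a collagen-binding endocytic receptor, rose in SMCs by 0.45 and fell in PDGFR-β+ cells by 0.77. Of the sushi domain genes, none of the 3 others tested in SMCs passed the test, and Susd1 and Susd6 rose in PDGFR-β+ cells. The log2 change of Susd1 was 0.16 ± 0.18 in SMCs and 0.87 ± 0.23 in PDGFR-β+ cells (SE; adjusted p = 0.538 and 0.021, limma).

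Among the other glycerophosphodiester phosphodiesterases, 1 of 5 rose and none fell in SMCs, and 2 of 5 rose and 3 fell in PDGFR-β+ cells, beside 28.5% and 40.6% of all genes changed. Gde1, which releases glycerol phosphate from lipid precursors, rose by 0.45 in SMCs and fell by 0.64 in PDGFR-β+ cells, the opposite of Gdpd2 in each. The log2 change of Gdpd5 was -0.02 ± 0.15 in SMCs, against -0.41 ± 0.11 in PDGFR-β+ cells (SE; adjusted p = 0.936 and 0.0186, limma). Of 9 other annexins, 3 rose and none fell in SMCs, and 1 rose and 3 fell in PDGFR-β+ cells, beside 28.5% and 40.6% of all genes changed. Anxa2 rose by 0.40 in SMCs and fell by 0.47 in PDGFR-β+ cells. Anxa1 had log2 changes of -0.06 ± 0.11 and 0.13 ± 0.06 (SE; adjusted p = 0.742 and 0.119, limma).

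Guanine deaminase feeds xanthine to xanthine dehydrogenase, Xdh. That transcript fell with Gda in SMCs, from a mean of 431 to 210 TPM (log2 change -1.03 ± 0.11 SE; adjusted p = 0.00166, limma), and was 163 TPM with Scr and 160 TPM with siKlf4 in PDGFR-β+ cells (adjusted p = 0.84, limma). The purine nucleoside phosphorylase Pnp, which releases guanine from its nucleosides, rose by 1.43 in PDGFR-β+ cells (adjusted p = 5.23e-05, limma) and had a log2 change of -0.16 ± 0.09 (SE) in SMCs. Ampd3, an AMP deaminase, rose by 1.06 in PDGFR-β+ cells. Over the other purine salvage and breakdown genes, 3 of 15 rose and 2 fell in SMCs, and 6 of 14 rose and 2 fell in PDGFR-β+ cells, against 28.5% and 40.6% of all genes changed.

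The clade B serpins held the relatives with the largest falls. Of 10 others tested in SMCs, 4 fell and 1 rose, and of 9 in PDGFR-β+ cells, 4 fell and 3 rose, where 12.9% and 15.3% of all genes tested fell. In SMCs, Serpinb9e and Serpinb9g passed the minimum level only through their siKlf4 libraries, so their tested change could only be a rise. Serpinb1a, an inhibitor of neutrophil proteases, was 40.8, 42.3 and 41.7 TPM with Scr, against 10.9, 6.59 and 9.50 TPM with siKlf4 in SMCs. The level in PDGFR-β+ cells was 67.0, 43.6 and 64.0 TPM with Scr, against 9.55, 9.30 and 6.59 TPM with siKlf4, and the log2 changes were -2.11 and -2.63 (adjusted p = 8.1e-04 and 7.33e-05, limma). Serpinb9b fell in PDGFR-β+ cells from a mean of 339 to 64.2 TPM and had a log2 change of -0.21 ± 0.11 (SE; adjusted p = 0.187, limma) in SMCs. The nearest relatives of Serpinb6c had smaller fitted changes. Serpinb6a changed by -0.33 ± 0.06 in SMCs and -0.42 ± 0.12 in PDGFR-β+ cells, and Serpinb6b by -0.50 ± 0.09 and -0.60 ± 0.15 (log2, SE), all 4 past the threshold. Serpinb2 fell by 1.13 in SMCs and rose by 0.96 in PDGFR-β+ cells.

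**Figure D4:**
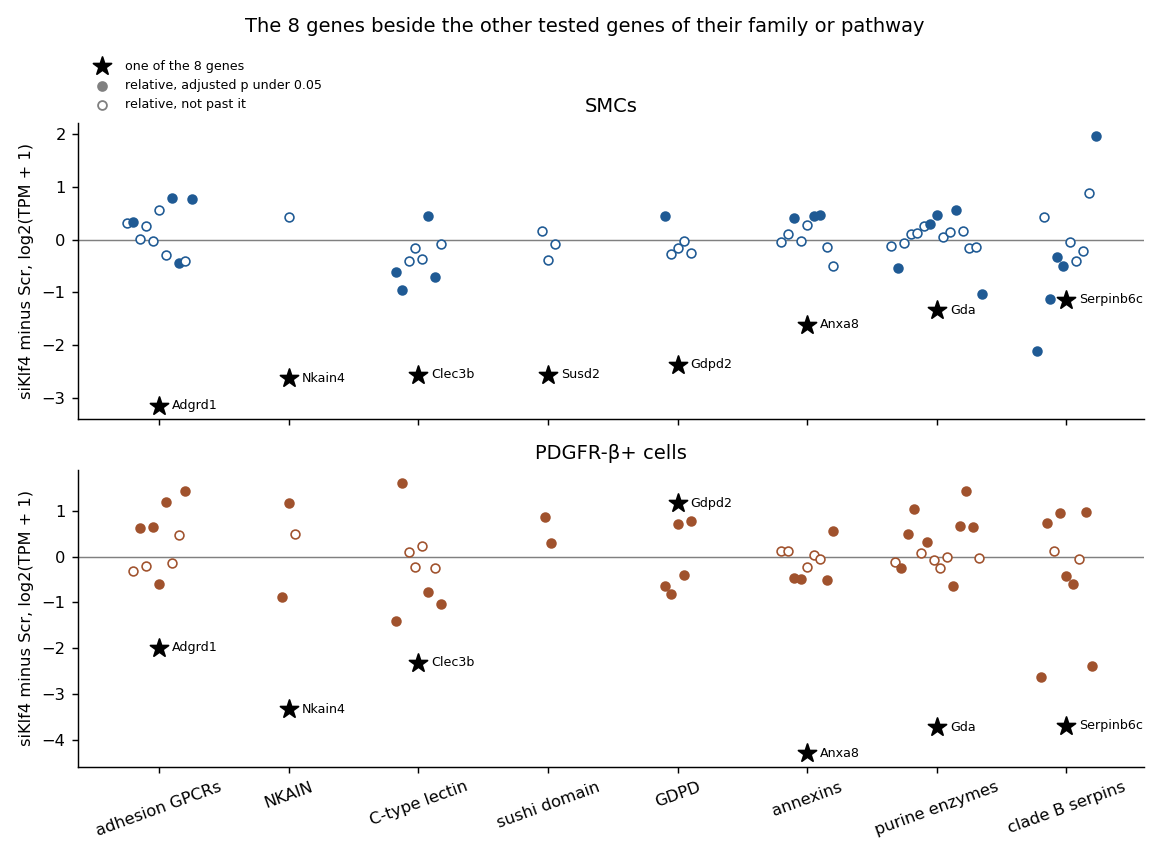
The siKlf4 minus Scr difference of log2(TPM + 1) for the 8 genes (stars) and the other tested genes of their family or pathway list (circles, filled where the adjusted p was under 0.05) in SMCs and PDGFR-β+ cells. Susd2 was not tested in PDGFR-β+ cells. In SMCs, Serpinb1a at -2.11 is the relative that fell furthest, and in PDGFR-β+ cells it lies at -2.63.

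Genes with the most similar profiles over the 12 libraries were found by the mean absolute difference of centred log2(TPM + 1), among 12275 genes. For Adgrd1 the closest were Prg4 at 0.39, Igfbp5 at 0.55 and Galnt15 at 0.56. Prg4, which encodes lubricin, was 46.9 to 80.3 TPM in Scr-treated SMCs and 10.1 to 16.9 TPM after siKlf4. For Clec3b they were Ppl, Tnxb and Aldh1a2, all within 0.42, and for Susd2 they were Gngt2, Syt13 and Lypd1, all within 0.32. Gdpd2 was closest to Islr at 0.45, Gpc3 at 0.49 and Aspg at 0.49. Islr was lower with siKlf4 in SMCs, 185 to 230 TPM against 78.1 to 96.7 TPM, and higher in PDGFR-β+ cells, 3.07 to 4.60 TPM against 7.21 to 13.6 TPM. For Anxa8 the list held Klf4 itself, at 0.43, between Elobl at 0.37 and Wisp2 at 0.49. Gda was closest to Prelp at 0.26, Sned1 at 0.42 and Lbp at 0.54. Nkain4 and Serpinb6c shared Pkhd1l1 and Tnfsf15, at 0.77 and 0.78 for Nkain4 and 0.52 and 0.50 for Serpinb6c, beside Angpt4 at 0.74 and Tubb4a at 0.60. These values are descriptions over libraries that share cell type and treatment.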

How the data were processed

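Bulk RNA-seq libraries were analysed from the TPM values that the authors deposited in a separate table for each cell type, with a column for each library. The authors aligned reads to mm10 with HISAT2 and estimated abundance with StringTie and ballgown on GENCODE annotation. The submitters' processing notes also name DESeq2, whose results were not used. TPM fixes the total of each library at 1000000 and keeps no depth, so precision rests on the 3 libraries of a group, which the methods describe as independent experiments.

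Here, log2(TPM + 1) was compared within each cell type with limma 3.58.1 (lmFit, eBayes with a trend) in R 4.3.3, where a gene's mean over the 6 libraries reached 1 TPM. Fold changes on this scale understate the change of low genes. P-values were two-sided and adjusted over all genes tested by the Benjamini-Hochberg method, with a threshold of 0.05. With 3 libraries against 3, the smallest exact permutation p is 0.1. The difference between cell types was the interaction term over the 12 libraries. The members and lists were chosen with earlier results of these data known. The planned test of the Scr levels is given without p, since the choice used those libraries. Named genes are the 8 members and Klf4, the genes at the edges of the choice (a ranking that leaves out clone and model names), the nearest relatives, for each list up to 4 that passed the threshold in either cell type and reached a mean of 10 TPM in 1 group, and the 3 most similar profiles. Adgrl3, Adgrg1, Adgrf5, Nkain2, Susd6, Serpinb9e, Serpinb9g and the markers were named beside their counts after their values were seen. All 12 sample columns were used, and the unnumbered SMC columns were placed by their group names. Gene positions are from GENCODE M21, in which all 8 identifiers were found, 7 with the same version. The fit was tested on simulated data. Alternatives were another pseudocount, other filters and scalings, no trend, a joint fit, a replicate block, a term for the unnumbered libraries and leaving out each library.

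Same-numbered Scr and siKlf4 libraries did not deviate together in PDGFR-β+ cells, with correlations of 0.073, -0.016 and 0.0043.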

Additional observations from a re-analysis of the deposited data

Results flagged for a closer look

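Gdpd2, the membrane glycerophosphodiester phosphodiesterase, was the 1 gene of the 8 that moved in opposite directions in the cell types. Every siKlf4 library of SMCs was below every Scr library, and every siKlf4 library of PDGFR-β+ cells was above every Scr library. The difference of the log2 changes, SMCs minus PDGFR-β+ cells, was -3.54. This difference was not tested, because Gdpd2 was chosen by its change in SMCs. In PDGFR-β+ cells its highest Scr library was 0.637 TPM.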

How the results depend on the processing

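Of 98 tested log2 changes of single genes under the alternatives, 89 kept direction and call and 9 lost the call. The 98 include 13 each for Adgrd1 and Clec3b and 12 for Gdpd2 in PDGFR-β+ cells, and 14 for Serpinb6c in SMCs. For these, the minimum level fixed the direction wherever it applied, so a kept direction says nothing about them. Fits in which a gene fell under the minimum level are not counted. Sizes of the changes depended on the pseudocount, and with 0.1 in place of 1 Adgrd1 in PDGFR-β+ cells was -4.93 and Clec3b -4.23. Of 121 untested changes 7 moved, and of 119 untested differences 5 moved and 4 reversed. The 4 reversed were differences between cell types (SMCs minus PDGFR-β+ cells). With a pseudocount of 0.1 they were 1.49 for Adgrd1, -0.28 for Nkain4 and 0.70 for Clec3b, and without Scr replicate 2 of PDGFR-β+ cells Clec3b gave 0.069, the highest value when any 1 library was left out (the lowest was -0.54). With a minimum mean of 5 TPM, 1 in place of 3 genes chosen in SMCs fell in PDGFR-β+ cells, and 0 in place of 3 differences were below 0, since low genes were no longer tested. With no filter, Susd2 had a log2 change of -0.72 in PDGFR-β+ cells (adjusted p = 0.0199, limma). Gdpd2 in PDGFR-β+ cells lost its call in 8 of 12 alternatives, with no filter, other scalings, no trend or without Scr replicate 1, 2 or 3 or siKlf4 replicate 2, with adjusted p up to 0.115 in limma, and the cause was not tested. With the replicate block, Serpinb6c in SMCs was -1.18 (adjusted p = 0.0615, limma), and no other tested call of the 8 genes was lost. Over all genes the block moved the number called from 3965 to 2853 in SMCs, where both fits used the numbered libraries alone. The main SMC fit, with the unnumbered libraries, called 3910. In PDGFR-β+ cells the block moved the number called from 5559 to 5641. Same-numbered SMC libraries correlated at 0.107 in their deviations from the group means. With 2 numbered libraries in each group these deviations mirror each other. Both pairs therefore give the same value, the crossed value is its negative (-0.107), and pairing in SMCs cannot be judged from it. The number of genes of PDGFR-β+ choice that fell in SMCs was 2 to 3 over all alternatives. The precision of low values, under about 1 TPM, cannot be judged from TPM alone.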
